A study of Mus musculus with 8 samples.

Results

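The nuclear-encoded subunits of respiratory complexes II to V were taken as 40 genes chosen by symbol, each found by its Ensembl identifier in the count files. All 40 were present among the 34745 listed genes. They comprised 4 genes of complex II, 9 of complex III, 12 of complex IV and 14 of complex V, and Cycs, the mobile carrier cytochrome c, which joins complex III to complex IV. RNA-seq had been carried out on 8 tumour samples of B16F10, a mouse melanoma line, grown subcutaneously in C57BL/6J mice. A normal diet (ND) was fed for the samples ND 1 to ND 4 (n = 4), and a high cholesterol diet (HCD) for HCD 1 to HCD 4 (n = 4), and no other treatment or genotype is given for either group. The age of the mice, the length of feeding and whether each sample came from a separate mouse are details not given in the sources used here. The p-values therefore speak of the spread among the 8 libraries alone, which may be technical.

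Complexes II, III and IV lie in the inner mitochondrial membrane and pass electrons from succinate and reduced ubiquinone through cytochrome c to oxygen. Complexes III and IV pump protons as they do so, and complex V, the ATP synthase, uses their return to make ATP. Complex II is wholly nuclear-encoded, whereas complexes III, IV and V each combine nuclear-encoded subunits with a few made inside the mitochondrion. Many of the nuclear genes are read under the transcription factors NRF1 and GABPA and coactivators of the PGC-1 family.

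Total counts ran from 14599222 in ND 4 to 17722093 in HCD 4, and their group means did not differ beyond the spread (two-sided exact permutation p = 0.714). The share of counts on mitochondrially encoded genes was 14.0% ± 0.481 in ND and 12.2% ± 0.719 in HCD (SD, n = 4 each; exact permutation p = 0.0286, the lowest p possible for 4 against 4). Libraries ND 2, ND 3 and ND 4 stood apart from the other 5: they had counts on 438 to 465 olfactory and vomeronasal receptor genes, against 8 to 13 elsewhere. All 7 melanoma markers were present, with a summed level of 25880 to 30100 CPM (counts scaled to a common library size with TMM factors) in every library. Of these, edgeR, DESeq2 and limma-voom called 1, Mitf, a regulator of melanocyte genes (named after its values were seen): it was at 261, 205, 248 and 287 CPM in ND, against 516, 391, 444 and 459 CPM in HCD (log2 fold change 0.85, SE 0.112, edgeR adjusted p = 0.0459). It lost the call when any library but ND 2 was left out, with adjusted p between 0.0581 and 0.138. Keratinocyte markers summed to at most 0.114 CPM. In whole tumours, fewer cells of a type and less RNA per cell cannot be told apart.

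The start sites of these genes were compared first, because many of them are known targets of NRF1 or GABPA and the choice of genes used no sequence. RefSeq promoter windows (GRCm38.p6, 250 bases before to 50 after the start) were matched by symbol for 32 of the 40 genes. Both strands were searched for the core of the NRF1 site, CGCANGCG, and the core of the GABPA site, CCGGAAGT, and no 2 matches of different motifs overlapped. The NRF1 core was in the windows of 15 of 32 subunit genes (46.9%), against 12.4% of 17491 protein-coding genes with a window. The GABPA core was in 4 of 32 (12.5%), against 5.69%. The 4 windows below run from 120 bases before to 25 after the start, 5′ to 3′ on the gene's strand, with motif matches in capitals. Uqcr11 and Atp5g3 are shown because they were the 2 genes with a higher mean in HCD at an unadjusted p under 0.05, Uqcrh because it had the most negative fold change among those with a lower mean at that level, and Sdha because it holds several NRF1 cores.
Uqcr11, chr10:80406797-80406941, minus strand: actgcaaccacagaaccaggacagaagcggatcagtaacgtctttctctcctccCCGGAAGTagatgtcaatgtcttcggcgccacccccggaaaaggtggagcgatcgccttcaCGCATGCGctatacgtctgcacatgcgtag
Atp5g3, chr2:73911302-73911446, minus strand: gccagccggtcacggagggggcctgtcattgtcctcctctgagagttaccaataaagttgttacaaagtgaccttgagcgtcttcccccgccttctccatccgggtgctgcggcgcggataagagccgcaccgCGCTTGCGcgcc
Uqcrh, chr4:116075046-116075190, minus strand: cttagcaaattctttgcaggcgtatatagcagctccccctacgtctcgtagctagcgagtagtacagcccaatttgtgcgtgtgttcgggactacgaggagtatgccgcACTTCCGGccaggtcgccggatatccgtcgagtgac
Sdha, chr13:74350216-74350360, minus strand: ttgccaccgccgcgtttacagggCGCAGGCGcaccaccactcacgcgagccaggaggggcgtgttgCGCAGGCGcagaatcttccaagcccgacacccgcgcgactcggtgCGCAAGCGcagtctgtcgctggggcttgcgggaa
Uqcr11 held both motifs, Atp5g3 and Sdha only the NRF1 core and Uqcrh only the GABPA core in the stretch shown. By complex, the NRF1 core was found for 2 of 3 genes of complex II, 3 of 5 of complex III, 8 of 13 of complex V and Cycs, but for 1 of 10 of complex IV (Cox6a1). A match is a description of these letters, not a bound site.

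No subunit gene passed the test between diets, and most differences were small. In edgeR's quasi-likelihood test with Benjamini-Hochberg adjustment over 13186 genes, 0 of the 40 had an adjusted p under 0.05, against 0.182% of all genes, and the smallest adjusted p was 0.128, for Uqcr11. At an unadjusted p under 0.05 there were 7 of 40 (17.5%), against 14.7% of all genes. Of these, 5 had a lower mean in HCD (Sdhb, Uqcrh, Uqcrb, Uqcr10 and Atp5c1; 7.49% of all genes) and 2 a higher one (Uqcr11 and Atp5g3; 7.21% of all genes). The values of the 2 diets did not overlap for 3 of 40 (7.5%), against 9.67% of all genes: Uqcr11 was higher in HCD (4.94% of all genes), and Atp5a1 and Atp5b were lower (4.73%). These shares lay near those of all genes. limma-voom called 0 of the 40 (0.144% of all genes), and DESeq2 called 1, Uqcr11 (DESeq2 adjusted p = 0.0382), where it called 3.39% of all genes. All 40 genes passed the expression filter, and 3 of them (Cox7c, Atp5l and Atp5g2) had a count under 100 in some library.

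The log2 fold change (HCD minus ND) was below 0 for 28 of 40 subunit genes and above 0 for 12, against 48.9% below 0 over all genes. Its median was -0.051 for the 40 genes and 0.0049 for all genes, with a range from -0.36 for Atp5g2, a low gene, to 0.30 for Uqcr11. Standard errors ran from 0.0536 to 0.328. By complex, 2 of 4 were lower for complex II (median 0.0135), 7 of 9 for complex III (median -0.0499), 10 of 12 for complex IV (median -0.0612) and 9 of 14 for complex V (median -0.0628). Leaving out ND 2 gave 24 of 40 lower and a median of -0.0202. With a term for ND 2, ND 3 and ND 4, which leaves ND 1 as the only ND library compared with HCD and assumes it varies like the others, 20 of 40 were lower, the median was -0.0098, and 3 lower and 3 higher genes had an unadjusted p under 0.05.

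**Figure D1:**
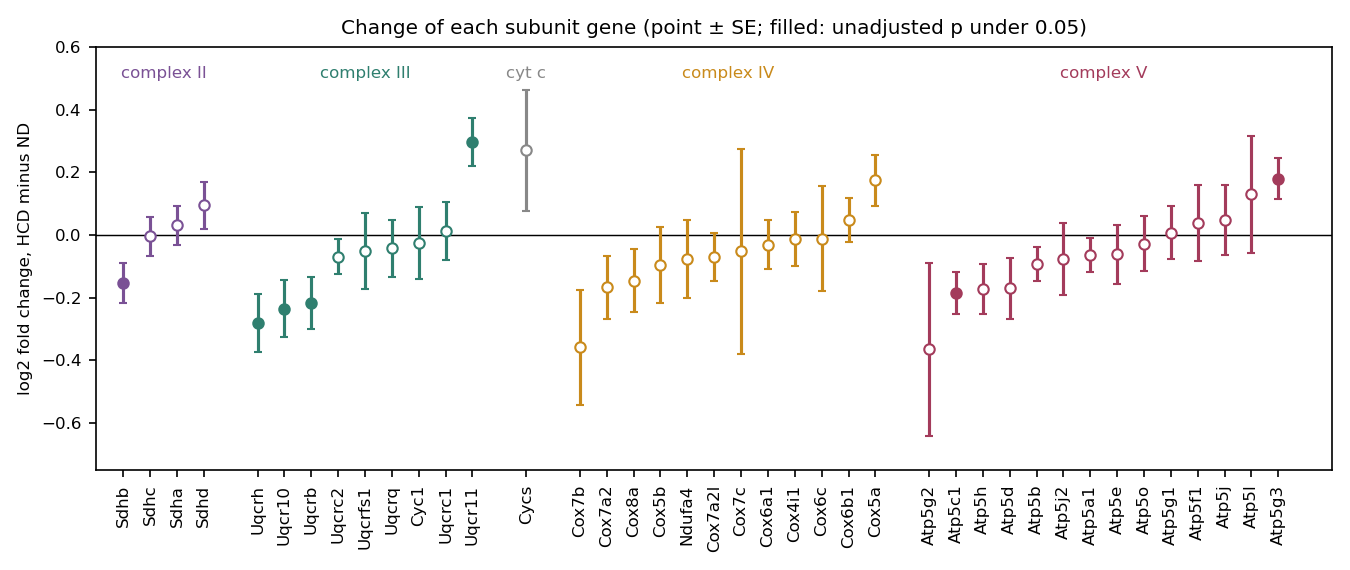
Log2 fold change (HCD minus ND, vertical axis) of each of the 40 subunit genes with its standard error, grouped by complex along the horizontal axis; filled points have an unadjusted p under 0.05. Points lie between -0.36 and 0.30, with 28 below 0, and the widest bars belong to the low genes Cox7c and Atp5g2.

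Complex II, succinate dehydrogenase, links the citric acid cycle to the respiratory chain, and its 4 genes had log2 fold changes from -0.15 to 0.09. Sdhb, the iron-sulphur subunit (chr4:140961203-140979193, plus strand, GRCm38), was at 190.0, 192.0, 180.2 and 176.2 CPM in ND 1 to ND 4 and at 157.6, 167.4, 177.7 and 161.5 CPM in HCD 1 to HCD 4. Only HCD 3 reached into the ND range. The log2 fold change was -0.15 (SE 0.0628, adjusted p = 0.299). Sdha, the flavoprotein that oxidises succinate, was at 243 ± 16.3 CPM in ND, against 248 ± 4.32 CPM in HCD. The membrane anchors that hold the haem and the ubiquinone site gave log2 fold changes of -0.0043 (Sdhc) and 0.09 (Sdhd), with SE 0.0629 and 0.0753. For these 3 genes the groups overlapped.

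Complex III, the cytochrome bc1 complex, held 4 of the 7 genes at an unadjusted p under 0.05 (44.4% of its 9 genes, against 14.7% of all genes). Of these 4, 3 had a lower and 1 a higher mean in HCD, and edgeR called 0 after adjustment. All 4 encode small accessory subunits, but so does Uqcrq, whose log2 fold change was -0.042. Whether the complexes differ in this share was not tested. Uqcr11 (chr10:80402997-80406830, minus strand), the smallest of these proteins, was at 47.6, 52.0, 49.8 and 46.0 CPM in ND 1 to ND 4. It was at 58.9, 57.1, 66.2 and 57.9 CPM in HCD 1 to HCD 4, so every HCD library was above every ND library. Its log2 fold change was 0.30 (SE 0.0769, adjusted p = 0.128), and between 0.24 and 0.33 when each library was left out in turn.

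Uqcrh, the acidic hinge protein that helps cytochrome c1 meet cytochrome c (chr4:116066965-116075071, minus strand), went the other way in its means. It was at 171.7, 181.8, 139.1 and 153.6 CPM in ND, against 130.5, 120.1, 140.3 and 141.0 CPM in HCD. ND 3 lay inside the HCD range and the other ND libraries above it (log2 fold change -0.28, SE 0.0933, adjusted p = 0.211). Uqcrb, which lies beside the cytochrome b core, was at 54.0, 53.3, 47.5 and 57.5 CPM in ND, against 41.6, 45.2, 47.3 and 48.4 CPM in HCD. HCD 4 exceeded ND 3 alone (log2 fold change -0.22, SE 0.0837, adjusted p = 0.273). Exons of Uqcrb share positions with Gm10767 on the opposite strand, and no source used here says whether counting used strand, so reads of the pair may not be separated. Uqcr10, another small subunit, was at 90.2, 91.3, 80.8 and 91.2 CPM in ND, against 76.9, 71.0, 86.8 and 65.8 CPM in HCD. HCD 3 was above ND 3, and the other ND libraries were above all HCD libraries (log2 fold change -0.23, SE 0.0924, adjusted p = 0.284).

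The catalytic and core subunits of complex III had closer group means. Uqcrfs1, the Rieske iron-sulphur protein, was at 129 ± 24.5 CPM in ND, against 125 ± 5.17 CPM in HCD. Cyc1, cytochrome c1, was at 235 ± 26.5 and 231 ± 34.5 CPM. The core proteins gave log2 fold changes of 0.0126 (Uqcrc1, SE 0.0936) and -0.0687 (Uqcrc2, SE 0.0571), and the small subunit Uqcrq gave -0.042 (SE 0.0904). All 5 had overlapping groups. Cycs was at 9.55, 16.7, 15.6 and 10.6 CPM in ND, against 13.7, 14.6, 15.6 and 19.2 CPM in HCD. ND 1 and ND 4 were lower than every other library, while ND 2 and ND 3 lay among the HCD libraries (log2 fold change 0.27, SE 0.194, adjusted p = 0.575). Without ND 1 the log2 fold change was 0.14, and without ND 2 it was 0.41.

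**Figure D2:**
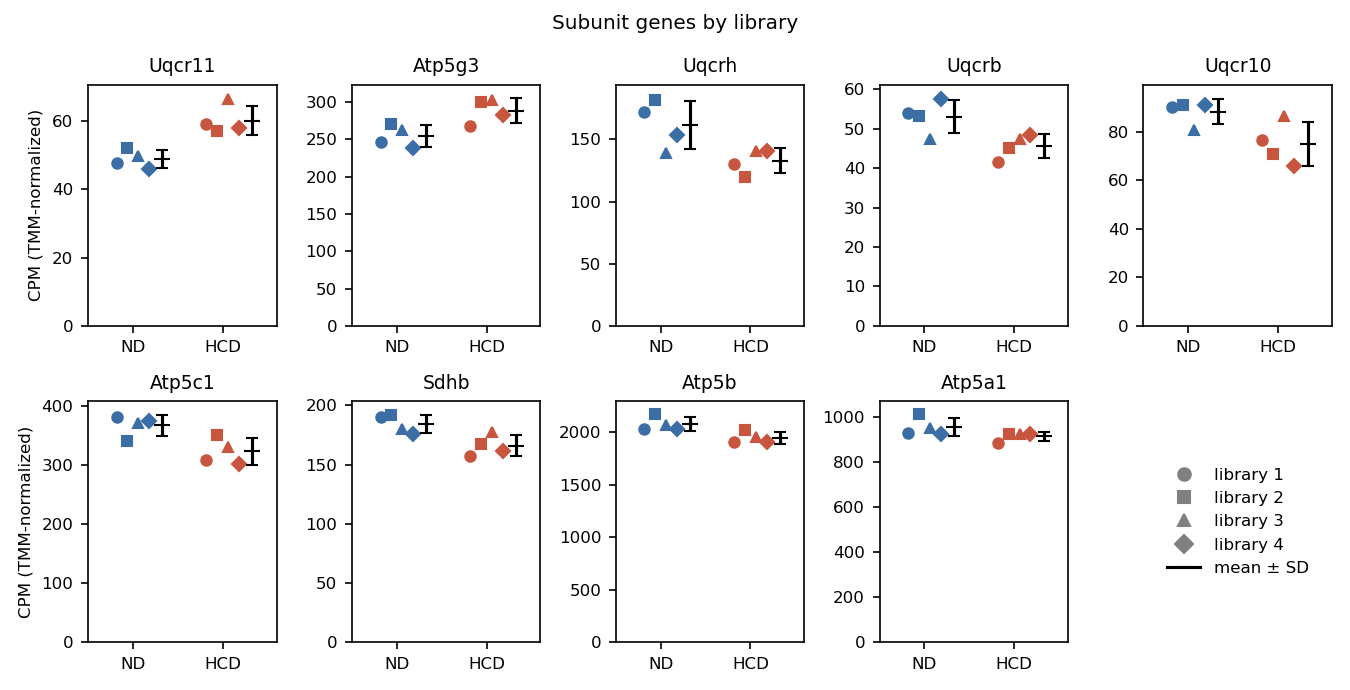
Level (CPM, vertical axis from 0) in each ND and HCD library of the 7 subunit genes at an unadjusted p under 0.05 and of Atp5b and Atp5a1, with marker shape for the library number and mean ± SD beside each group. Uqcr11 is the panel with the clearest gap, from 52.0 CPM in the highest ND library to 57.1 CPM in the lowest HCD library.

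Complex IV, cytochrome c oxidase, had no nuclear-encoded subunit at an unadjusted p under 0.05 (14.7% of all genes), although 10 of 12 fold changes were below 0 (48.9% of all genes). Cox5a, a subunit on the matrix side, had its smallest p. It was at 77.4, 75.8, 88.9 and 75.5 CPM in ND, against 82.2, 87.0, 92.6 and 96.9 CPM in HCD, and ND 3 overlapped HCD while the other ND libraries lay below it (log2 fold change 0.18, SE 0.0813, adjusted p = 0.356). Its exons share positions with Gm26631 on the opposite strand. Cox7b had the most negative fold change of the complex: 24.9, 23.0, 16.1 and 26.2 CPM in ND against 14.0, 15.2, 18.8 and 22.3 CPM in HCD. ND 3 was among the HCD values (log2 fold change -0.36, SE 0.184, adjusted p = 0.405).

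Cox8a, a small membrane subunit, was at 334 ± 34.1 CPM in ND, against 302 ± 38.2 CPM in HCD, and Cox7a2, the form of subunit 7a found in most tissues, at 61.8 ± 5.26 and 55.0 ± 6.65 CPM. Cox4i1, the common form of subunit 4, gave 261 ± 28.4 and 259 ± 17.2 CPM. Cox7a2l gave 109 ± 9.53 and 104 ± 5.19 CPM. The remaining 6 genes (Cox5b, Cox6a1, Cox6b1, Cox6c, Cox7c and Ndufa4) had log2 fold changes between -0.096 and 0.0483. Cox7c was at 3.09, 3.92, 2.10 and 3.75 CPM in ND, against 4.38, 3.03, 3.52 and 1.48 CPM in HCD (SE 0.328, adjusted p = 0.966), with the highest and the lowest library both in HCD. Of these 6, Cox6c and Ndufa4 had 1 library far from the rest of its group: Cox6c was at 34.4, 34.4, 36.2 and 53.1 CPM in HCD 1 to HCD 4, and Ndufa4, once assigned to complex I, at 58.9, 57.3, 58.7 and 83.9 CPM. In both genes HCD 4 was also above all 4 ND libraries.

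Complex V had 2 genes at an unadjusted p under 0.05 (14.3%, against 14.7% of all genes). It had 2 more whose groups did not overlap (14.3%, against 9.67% of all genes). Atp5c1, the gamma subunit that turns inside the catalytic head (chr2:10056016-10080510, minus strand), was at 382.1, 342.0, 372.1 and 375.2 CPM in ND, against 309.5, 351.4, 331.9 and 302.5 CPM in HCD. Only HCD 2 was above an ND library (ND 2). The log2 fold change was -0.18 (SE 0.0672, adjusted p = 0.252). Atp5b, the catalytic beta subunit (chr10:128083273-128090391, plus strand), was at 2026, 2172, 2070 and 2031 CPM in ND, against 1906, 2023, 1950 and 1905 CPM in HCD. The lowest ND library exceeded the highest HCD library by a small margin (log2 fold change -0.0925, SE 0.0536, adjusted p = 0.470). Atp5a1, the alpha subunit, was at 930, 1015, 953 and 928 CPM in ND, against 885, 925, 924 and 925 CPM in HCD, again with a narrow gap (log2 fold change -0.0637, SE 0.0545, adjusted p = 0.650). Its exons share positions with Haus1 on the opposite strand. The gaps of Atp5a1 and Atp5b depended on the scaling: with DESeq2 size factors, 1 of the 40 genes had groups that did not overlap.

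The other subunits of the head and its stalks had overlapping groups. The delta subunit Atp5d was at 266 ± 30.0 CPM in ND, against 236 ± 24.3 CPM in HCD, and the epsilon subunit Atp5e at 54.5 ± 4.84 and 52.2 ± 5.10 CPM. In the peripheral stalk, Atp5h (subunit d) gave 89.2 ± 8.13 and 79.2 ± 3.46 CPM (log2 fold change -0.17, SE 0.0791, adjusted p = 0.349). Atp5o, which caps the stalk, gave 214 ± 26.7 and 210 ± 5.29 CPM, Atp5f1 (subunit b) 143 ± 23.6 and 147 ± 15.6 CPM, and Atp5j (coupling factor 6) 64.9 ± 9.68 and 67.0 ± 5.61 CPM. The membrane subunits Atp5j2 and Atp5l gave log2 fold changes of -0.0757 (SE 0.114) and 0.13 (SE 0.187).

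Subunit c, which forms the rotating ring of complex V, is made from 3 genes that encode the same mature protein behind different import signals. The last 78 codons of Atp5g1, Atp5g2 and Atp5g3 encode the same residues, and their 234 bases differ at 63 positions, shown in capitals in the coding strand from GENCODE M21 because reads from this stretch of the 3 genes can be told apart only where the bases differ.
Atp5g1: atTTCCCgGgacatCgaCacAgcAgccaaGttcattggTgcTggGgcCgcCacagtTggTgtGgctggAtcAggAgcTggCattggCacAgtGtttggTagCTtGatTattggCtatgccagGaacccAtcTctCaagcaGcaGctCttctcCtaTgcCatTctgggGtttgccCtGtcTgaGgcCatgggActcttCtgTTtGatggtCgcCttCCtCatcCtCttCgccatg
Atp5g2: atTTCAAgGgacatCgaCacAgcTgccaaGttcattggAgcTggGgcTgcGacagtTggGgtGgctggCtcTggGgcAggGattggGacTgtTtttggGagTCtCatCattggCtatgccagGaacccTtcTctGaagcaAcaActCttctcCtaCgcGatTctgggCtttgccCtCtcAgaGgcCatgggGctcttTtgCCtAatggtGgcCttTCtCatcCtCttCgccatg
Atp5g3: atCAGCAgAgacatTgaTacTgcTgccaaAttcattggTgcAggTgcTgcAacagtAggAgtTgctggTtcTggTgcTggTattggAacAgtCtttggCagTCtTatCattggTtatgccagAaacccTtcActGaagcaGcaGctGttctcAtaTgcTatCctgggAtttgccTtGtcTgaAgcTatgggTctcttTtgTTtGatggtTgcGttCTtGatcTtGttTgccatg
Base identity over this stretch was 84.6% between Atp5g1 and Atp5g2, 78.6% between Atp5g1 and Atp5g3 and 77.4% between Atp5g2 and Atp5g3. Atp5g3 was at 246.1, 270.4, 261.8 and 238.2 CPM in ND, against 267.3, 300.2, 302.3 and 282.1 CPM in HCD, with HCD 1 inside the ND range (log2 fold change 0.18, SE 0.0667, adjusted p = 0.258). Atp5g1 was at 36.1 ± 2.68 CPM in ND, against 36.4 ± 2.30 CPM in HCD. Atp5g2 was at 3.09, 2.65, 2.59 and 3.68 CPM in ND, against 3.60, 2.12, 1.96 and 1.65 CPM in HCD (log2 fold change -0.36, SE 0.276, adjusted p = 0.601), with HCD 1 above 3 of the ND libraries. Without HCD 1 its log2 fold change was -0.65, and without HCD 4 it was -0.23. Per length, mean FPKM was 92.5 for Atp5g3, 3.70 for Atp5g1 and 1.26 for Atp5g2. The size of these gaps depends on the gene lengths used by the submitters. Per kilobase of GENCODE M21 exons, mean CPM was 124 for Atp5g3, 7.38 for Atp5g1 and 1.59 for Atp5g2. The Atp5g2 value is uncertain, because Gm10175, whose match to its transcript is 100% identical, held 230% of the Atp5g2 count. The Atp5g1 value is uncertain too, because Gm10039, which is not among the listed genes, matches 411 bases of its transcript at 99.8% identity.

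Levels of the 40 genes, compared per length as the deposited FPKM (fragments scaled by gene length and library total), spanned 462-fold. Median FPKM was 55.9 for complex II, 53.4 for complex III, 85.1 for complex IV and 30.7 for complex V. In complex II the highest mean FPKM was that of Sdhd (93.1) and the lowest that of Sdhc (31.4). Complex III ran from Cyc1 (195) to Uqcrc2 (42.1), so these complexes covered 2.96-fold and 4.63-fold. Complex IV ran from Cox8a (583) to Cox7c (1.79), and complex V from Atp5b (290) to Atp5g2 (1.26), or 325-fold and 230-fold. Cycs was at 3.87 FPKM.

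At the ends of each complex, mean FPKM in ND and HCD was 88.6 ± 7.87 and 97.6 ± 2.26 for Sdhd, and 31.0 ± 0.987 and 31.9 ± 1.37 for Sdhc. It was 194 ± 23.1 and 196 ± 28.9 for Cyc1, and 42.5 ± 0.933 and 41.8 ± 0.969 for Uqcrc2. For Cox8a it was 604 ± 64.9 and 563 ± 73.2, for Cox7c 1.796 ± 0.464 and 1.79 ± 0.725, for Atp5b 295 ± 8.68 and 285 ± 9.92, and for Atp5g2 1.40 ± 0.240 and 1.12 ± 0.437 (SD, n = 4 for each value). These FPKM carry no TMM scaling, and for Cyc1 and Sdhc the CPM means had the opposite order (235 and 231 CPM for Cyc1, 121.1 and 120.7 CPM for Sdhc). Within groups, the CV of CPM had a median of 8.80% in ND and 7.30% in HCD, from 1.74% to 39.3%, and was larger in ND for 21 of 40 genes.

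**Figure D3:**
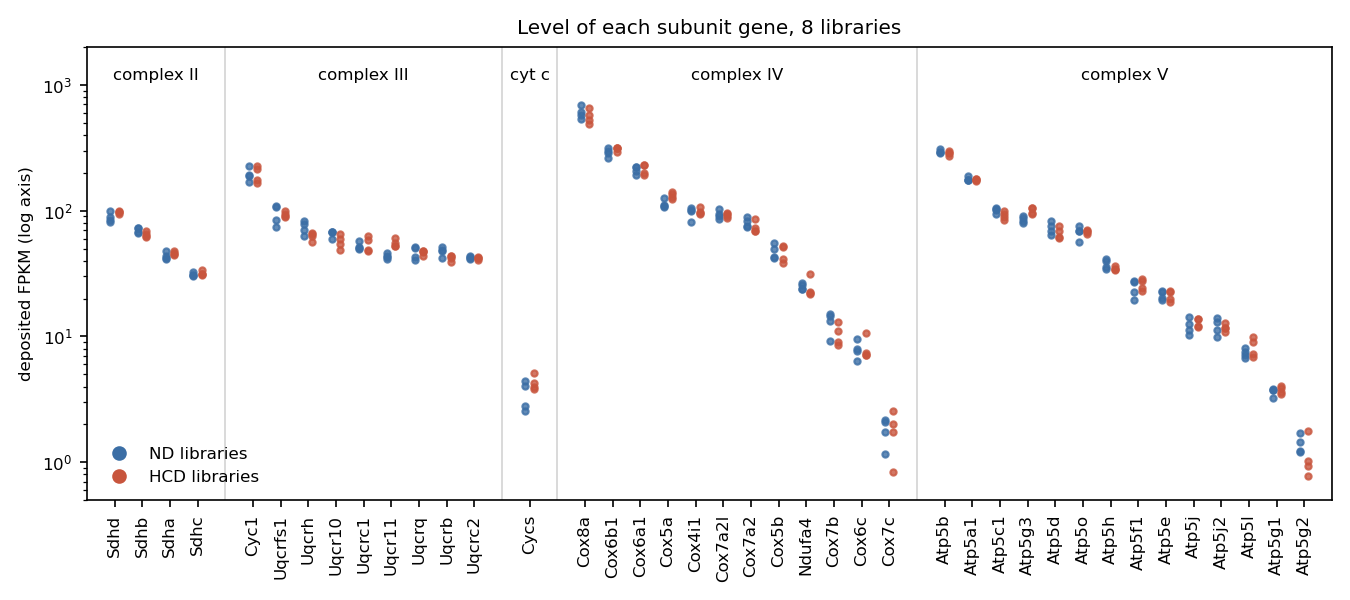
Deposited FPKM (log axis) of each subunit gene in the 4 ND and 4 HCD libraries, ordered within each complex along the horizontal axis. Complexes II and III cover a narrow band, while complexes IV and V fall from 583 (Cox8a) to 1.79 (Cox7c) and from 290 (Atp5b) to 1.26 (Atp5g2).

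The order of these levels depends on the gene lengths used by the submitters. The length behind each FPKM was longer than the joined exons of GENCODE M21 for 32 of 40 genes, equal for 1 and shorter for 7, and for 7 genes it equalled the summed length of all transcripts. With CPM per kilobase of M21 exons the medians were 68.9 for complex II, 84.9 for complex III, 67.1 for complex IV and 46.4 for complex V, so complex III rather than IV was highest. The ranks of the 40 genes on the 2 scales had a Spearman correlation of 0.91, given as a description since both use the same counts. Cox5a moved from place 7 by FPKM to place 28.

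Several low values belong to genes with near-identical copies elsewhere in the genome. For 8 genes (Uqcrb, Cox7c, Atp5c1, Atp5g1, Atp5g2, Atp5h, Atp5l and Atp5o) another annotated gene matched at least 50% of the transcript at 95% identity or more, and for 4 of them a copy had counts of its own. Beside Atp5g2, these were Cox7c, whose copy Gm10012 held 55.2% of the Cox7c count, Atp5h, whose copy Gm10250 held 176%, and Atp5l, whose listed copies held 75.6% together. The copies of Uqcrb, Atp5c1, Atp5g1 and Atp5o are not among the listed genes, so the reads that fit them cannot be seen. No source used here says how reads that fit several places were treated, so levels of all 8 genes are uncertain. Copies of less than 50% of a transcript do not meet this rule, so the other 32 genes are not shown to be free of copies. Without the 8 genes, 22 of 32 fold changes were below 0 and the median was -0.046. In addition, 12 of the 40 shared exon positions with another annotated gene.

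Library by library, the subunit genes were highest in ND 2. The mean over the 40 genes of log2 CPM, taken relative to each gene's average over the 8 libraries, was -0.0149, 0.0968, 0.0159 and 0.0032 in ND 1 to ND 4 and -0.0563, -0.0552, 0.0273 and -0.0169 in HCD 1 to HCD 4. HCD 3 was above 3 of the ND libraries. ND 2 held the highest value of 16 of the 40 genes, and HCD 1 the lowest of 12. The subunit genes together took 0.759% to 0.816% of all counts in each library.

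Skeletal muscle, whose fibres are rich in these complexes, was the marker list with the largest median difference between diets over tested markers (log2 fold change -2.40). Only 8 of its 16 markers passed the expression filter, and these were all lower in HCD. Acta1 and Ckm, given below, had most of their counts in ND, so the filter itself can favour markers lower in HCD. The median, that direction and the relative values below use these 8 alone and are partly set by the filter. The summed level of all 16 was 28.4 to 129 CPM in ND and 16.9 to 25.7 CPM in HCD. On the relative log2 scale the muscle value was 1.65, 2.34, 0.39 and -0.77 in ND 1 to ND 4 and -1.10, -1.14, -0.28 and -1.09 in HCD 1 to HCD 4. ND 2 and HCD 3 were highest in their groups for muscle and for the subunit genes, but ND 1 had the next highest muscle value and the lowest ND value of the subunit genes. Acta1, skeletal actin, was at 12.4, 19.5, 3.58 and 0.625 CPM in ND, against 0.300, 0.242, 1.33 and 0.340 CPM in HCD. Ckm, muscle creatine kinase, was at 2.63, 7.29, 0.741 and 0.278 CPM in ND, against 0.300, 0.182, 0.346 and 1.08 CPM in HCD. The fast myosins Myh1, Myh2 and Myh4, with Tnnt3, Tnni2, Tnnc2, Myl1 and Mb, were at 0 in at least 1 library. Macrophage markers summed to 299 to 509 CPM in ND and 448 to 598 CPM in HCD, with 8 of 9 higher in HCD, and all 5 endothelial markers were higher. So were the 5 fibroblast markers tested (median log2 fold change 0.70) and the 5 red cell markers (median 0.76), none at an unadjusted p under 0.05. Fibroblast markers summed to 45.0 to 251 CPM in ND and 59.5 to 269 CPM in HCD. Endothelial markers summed to 54.0 to 72.1 CPM in ND and 75.1 to 82.9 CPM in HCD. An unadjusted p under 0.05 was found for 3 of 5 endothelial and 3 of 9 macrophage markers, against 14.7% of all genes. All 8 tested muscle markers had one as well, but the filter partly set that count, so the share of all genes is no like comparison for it. In the endothelial, macrophage and muscle lists edgeR and limma-voom called 0. DESeq2 called 1 macrophage marker (Mrc1, higher, adjusted p = 9.6e-06) and 4 muscle markers (Acta1, Actn3, Tnnt3 and Ttn, lower), where it called 3.39% of all genes. The part of muscle and other cells in the subunit differences was not tested.

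**Figure D4:**
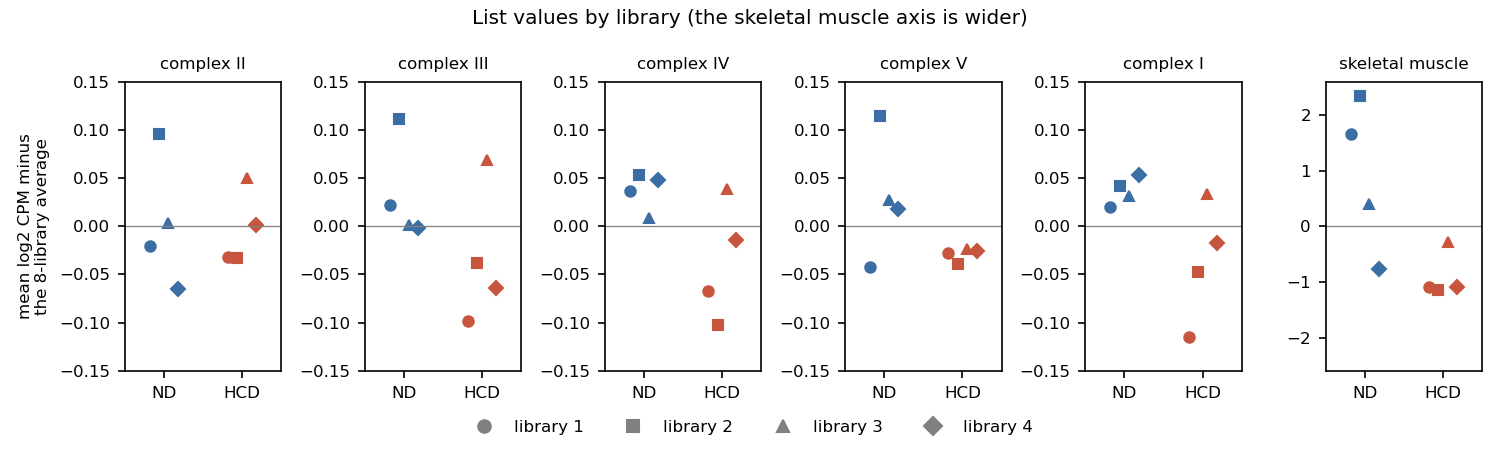
Mean log2 CPM relative to the average of the 8 libraries (vertical axis) for complexes II to V, the nuclear subunits of complex I and skeletal muscle markers, by diet, with marker shape for the library number; the muscle axis is wider. ND 2 is the highest library in complexes II, III, IV and V (0.0960, 0.111, 0.0535 and 0.115) and in muscle (2.34), while in complex I the highest is ND 4 (0.0528).

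The muscle forms of complex IV subunits were close to absent. Cox6a2 had mean levels of 0.790 CPM in ND, against 0.404 CPM in HCD, and Cox8b 0.197 and 0.174 CPM, and neither passed the expression filter. Cox7a1 was at 0.674 ± 0.282 CPM in ND, against 0.679 ± 0.303 CPM in HCD. Among the 9 tissue-restricted isoforms, Cox7b2, Cox8c and Cyct, the latter 2 known from testis, had no counts in any library, which allows up to 0.205 CPM (3 counts) in the shallowest of them, for counting error only. Of the 9, 3 were tested, with none at an unadjusted p under 0.05. Beside Cox7a1 these were Cox4i2, a form of subunit 4 induced by low oxygen (0.538 ± 0.448 and 0.993 ± 0.431 CPM), and Ndufa4l2 (3.94 ± 0.709 and 4.00 ± 1.46 CPM).

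Of 5 further complex V genes outside the 40, all 5 had a lower mean in HCD (48.9% of all genes), with a median log2 fold change of -0.18. An unadjusted p under 0.05 was found for 0 (14.7% of all genes). Atpif1, the inhibitor that blocks reverse action of the ATP synthase, was at 53.7, 69.2, 44.0 and 58.2 CPM in ND, against 45.4, 44.4, 50.8 and 45.5 CPM in HCD (log2 fold change -0.27, SE 0.125, adjusted p = 0.346), and its log2 fold change was -0.16 without ND 2. Atp5mpl, a small membrane subunit, was at 41.9, 50.2, 47.7 and 45.2 CPM in ND, against 35.1, 34.5, 34.3 and 49.0 CPM in HCD. Without HCD 4 its log2 fold change moved from -0.27 to -0.42.

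The mitochondrially encoded partners of these subunits had log2 fold changes below 0 for 5 of 6 genes (48.9% of all genes), with a median of -0.14. The 5 include mt-Atp6 and mt-Atp8, both near 0. Groups did not overlap for 2 of the 6 (33.3%, against 9.67% of all genes). mt-Co1, the catalytic core of complex IV, was at 57280, 56300, 56670 and 55030 CPM in ND, against 42700, 47310, 49670 and 45610 CPM in HCD, with no overlap (log2 fold change -0.28, SE 0.0638, edgeR adjusted p = 0.101). DESeq2 called mt-Co1 (adjusted p = 0.00309) and limma-voom did not. mt-Co2, which receives electrons from cytochrome c, was at 13430, 13030, 11280 and 12840 CPM in ND, against 9568, 9650, 11200 and 11260 CPM in HCD (log2 fold change -0.28, SE 0.0821, adjusted p = 0.164). Its groups were also without overlap, but only by the narrow gap between 11280 CPM in ND 3 and 11260 CPM in HCD 4. mt-Cytb gave 12220 ± 1597 and 10140 ± 1710 CPM. mt-Co3 varied widely in ND, with 3249, 9001, 9803 and 5974 CPM, against 6987, 7378, 6522 and 10770 CPM in HCD. mt-Atp6 and mt-Atp8, the partners in complex V, had log2 fold changes of -0.0021 (SE 0.346) and -0.0086 (SE 0.335).

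The nuclear subunits of complex I, the closest comparable set, gave 26 of 36 lower (72.2%, against 48.9% of all genes) and a median of -0.0839. An unadjusted p under 0.05 was found for 2 (5.56%, against 14.7% of all genes). Those were Ndufb5 (66.5 ± 11.3 CPM in ND and 44.9 ± 2.61 in HCD, log2 fold change -0.57, edgeR adjusted p = 0.0860 and DESeq2 adjusted p = 0.00205) and Ndufa1 (25.1 ± 1.47 and 19.6 ± 3.21 CPM, log2 fold change -0.35, adjusted p = 0.232). A test of the difference between that set and complexes II to V was not made.

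Assembly factors and regulators of these complexes had more higher than lower means in HCD, whereas most subunit genes had lower ones. edgeR and limma-voom called 0 genes in either list, and DESeq2 called 0 assembly factors and 2 regulators, Ppargc1a and Gabpb1. Of 35 assembly factors, 14 were lower (40%, against 48.9% of all genes) and 21 higher (median 0.056). An unadjusted p under 0.05 was found for 4 (11.4%, against 14.7% of all genes), all of them higher (7.21% of all genes). Groups did not overlap for 4 (11.4%, against 9.67% of all genes), 3 of them higher and 1 lower in HCD. The shares in either direction lay near those of all genes. Log2 fold changes of the 35 ran from -0.52 to 0.41, and the genes named below are those with the smallest p. Higd2a, which helps to join complex IV into supercomplexes, was at 75.9, 69.3, 76.7 and 70.4 CPM in ND, against 81.8, 91.5, 88.1 and 82.8 CPM in HCD, without overlap (log2 fold change 0.24, SE 0.0696, adjusted p = 0.164). Taco1, the translational activator of mt-Co1, was at 7.96 ± 0.824 and 10.6 ± 0.682 CPM (log2 fold change 0.41, SE 0.124, adjusted p = 0.170), while mt-Co1 itself had the lower mean given above. Sdhaf2, which attaches the flavin to Sdha, was at 26.1 ± 1.98 and 31.6 ± 1.38 CPM (log2 fold change 0.28, SE 0.0853, adjusted p = 0.182). Sco1, a copper chaperone for complex IV, was at 7.98 ± 0.479 and 9.77 ± 0.939 CPM (adjusted p = 0.319).

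Of 12 regulators, 4 were lower (33.3%, against 48.9% of all genes) and 8 higher (median 0.10), and 3 (25%, against 14.7% of all genes) had an unadjusted p under 0.05. Ppargc1a, the coactivator PGC-1alpha, was at 58.4, 79.3, 59.5 and 55.1 CPM in ND, against 81.1, 83.8, 81.1 and 86.2 CPM in HCD. All HCD libraries were above ND 2, the highest ND library (log2 fold change 0.40, SE 0.110, adjusted p = 0.147; DESeq2 adjusted p = 0.0396). Ppargc1b, its relative, was at 6.81, 4.10, 7.22 and 7.56 CPM in ND, against 7.97, 9.09, 10.1 and 8.79 CPM in HCD, also without overlap (log2 fold change 0.49, SE 0.194, adjusted p = 0.290), and its log2 fold change was 0.32 without ND 2. Gabpb1, a partner of GABPA, had the lower mean in HCD, 26.2 ± 2.64 CPM against 34.1 ± 3.66 CPM (log2 fold change -0.38, SE 0.107, adjusted p = 0.148; DESeq2 adjusted p = 0.0473). Polrmt, the mitochondrial RNA polymerase, was at 16.7 ± 3.06 and 20.2 ± 2.24 CPM (adjusted p = 0.403).

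**Figure D5:**
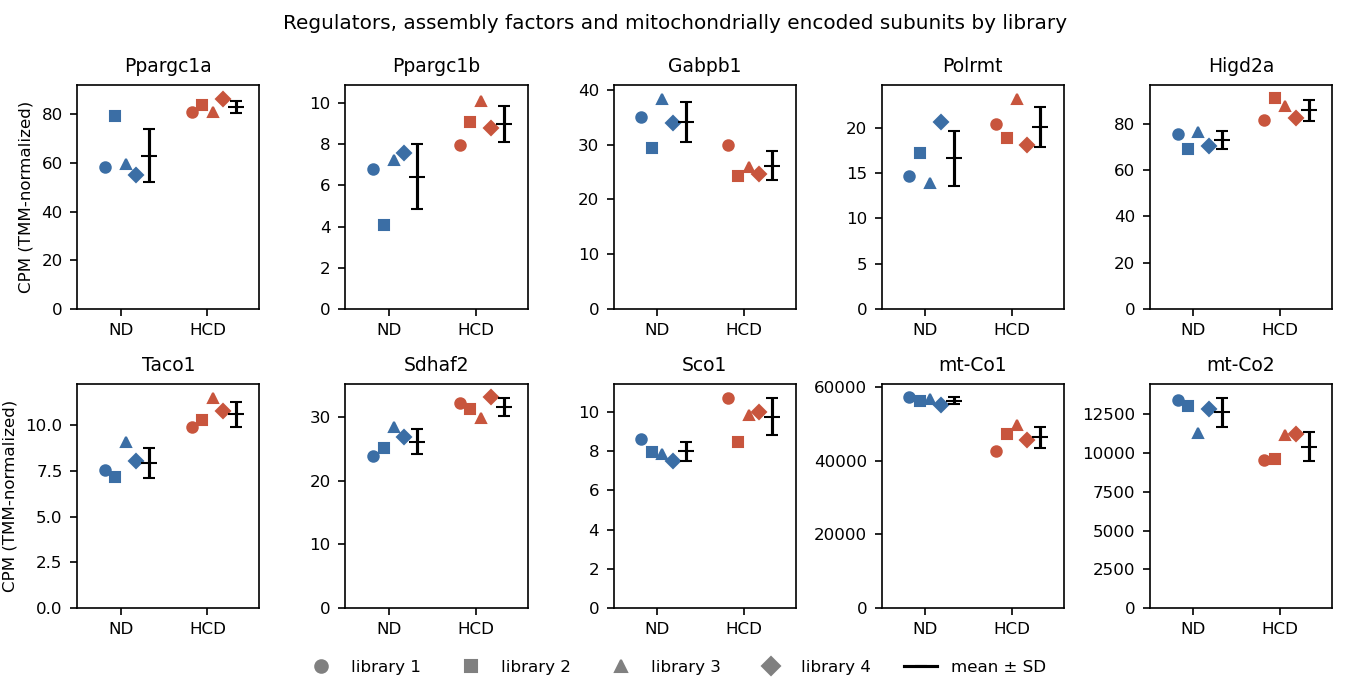
Level (CPM, vertical axes from 0) in each ND and HCD library of 4 regulators, 4 assembly factors and mt-Co1 and mt-Co2, with marker shape for the library number and mean ± SD beside each group. Ppargc1a lies between 81.1 and 86.2 CPM in the 4 HCD libraries, and ND 2, at 79.3 CPM, is the only ND library near them.

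Set beside the promoter windows, subunit genes with an NRF1 core had log2 fold changes below 0 for 7 of 15, with a median of 0.0126. Those with a window and no NRF1 core had values below 0 for 13 of 17, with a median of -0.0757. Over all genes, 48.9% were below 0. The first set included both genes higher at an unadjusted p under 0.05, Uqcr11 and Atp5g3, and the lowest value of all, Atp5g2. The 2 sets overlapped over most of their range, from -0.36 to 0.30 and from -0.36 to 0.18, and the difference between them was not tested.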

How the data were processed

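Total RNA from 8 tumour samples had been isolated with a column kit and made into paired-end libraries with the TruSeq RNA kit, per the labels' protocols. In the submitters' processing notes, mm10 stands beside CASAVA 1.8, TopHat2 2.0.9, HTSeq and edgeR, without role or order. The annotation, strand setting and treatment of reads that fit several places were not given in the sources used here. Whole-number counts per Ensembl gene and FPKM were deposited for each library, per the file headers. As the values show, the deposited FPKM divide the deposited count by 1 fixed length per gene and by the library's total.

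Groups follow the diet named in the sample titles. Of 34745 genes, 34267 were named through GENCODE M21 (GRCm38). Counts were tested with edgeR 4.0.16 (quasi-likelihood F-test, TMM factors, R 4.3.3) over the 8 libraries, with no term but diet, after edgeR's filter (minimum count 10, minimum total 15), with Benjamini-Hochberg adjustment over 13186 genes and a threshold of 0.05. SE is the size of the log2 fold change divided by the root of F. FPKM served for levels between genes and are given by group as a description, with no test. Subunit c genes were compared as coding sequence from GENCODE M21, not as proteins. Copies were found with blastn 2.17.0 and shared exon positions with bedtools 2.31.1. Alternatives were other size factors, DESeq2 1.42.0, limma-voom (limma 3.58.1), no filter, a replicate block, leaving out each library, leaving out mitochondrially encoded genes, a term for ND 2 to ND 4, and other length scalings. A pair was added after seeing the data: CPM per kilobase of M21 exons, and leaving out genes with copies.

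The 40 genes and the other lists were chosen with earlier results of these data known. Genes described in full were those at an unadjusted p under 0.05, those with non-overlapping groups and, per complex, the highest and lowest by mean FPKM and the smallest p; of each other list, up to 4 genes with the smallest p; and Acta1, Ckm, Cox6a2, Cox7a1 and Cox8b. Cox7b, Cox6c, Ndufa4, Cycs and other subunit genes beyond that rule were given to account for all 40, Mitf was named after its values were seen, and Cox6c and Ndufa4 were singled out after their values were seen.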

Additional observations from a re-analysis of the deposited data

Results flagged for a closer look

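Of 130 groups of 4 libraries examined, 80 of them of the subunit genes, 10 had 1 library far from the others of its group (a gap beyond Dixon's critical value); chance flags about 1 in 20 groups. Among the subunit genes there were 6. Uqcr10 was low in ND 3, at 80.8 CPM against 90.2 to 91.3 CPM in the other ND libraries. Cox5a was high in ND 3, at 88.9 CPM against 75.5 to 77.4. Cox6c was high in HCD 4, at 53.1 CPM against 34.4 to 36.2, and so was Ndufa4, at 83.9 CPM against 57.3 to 58.9. Atp5a1 was low in HCD 1, at 885 CPM against 924 to 925, and Atp5g1 was low in ND 4, at 32.1 CPM against 37.2 to 37.7.

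Outside the 40 genes, the complex V genes Atp5mpl and Atp5k were high in HCD 4, at 49.0 CPM against 34.3 to 35.1 and at 9.76 CPM against 8.99 to 9.12. Ndufa4l2 was high in HCD 2, at 6.18 CPM against 3.12 to 3.35, and Acta1 was high in HCD 3, at 1.33 CPM against 0.242 to 0.340.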

How the results depend on the processing

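No subunit gene was called under any alternative with edgeR or limma-voom, and DESeq2 called 1. Genes with non-overlapping groups numbered 1 with DESeq2 size factors, DESeq2, no filter and without mitochondrially encoded genes, against 3. Genes lower at an unadjusted p under 0.05, 5 in the main test, numbered 2 with the replicate block, 3 with a term for libraries ND 2, ND 3 and ND 4, and 3 without genes that have copies. The median of complex V was 0.0062 with that term. The same-numbered libraries did not deviate together (correlations from -0.0676 to 0.107). The labels do not say whether the numbers pair the samples, and these correlations cannot exclude it. Median levels of complexes II, III, IV and V were 148, 142, 226 and 81.3 scaled to TPM and 68.9, 84.9, 67.1 and 46.4 per kilobase of M21 exons, against FPKM of 55.9, 53.4, 85.1 and 30.7.

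With each library left out in turn, 0 were called. The count lower at an unadjusted p under 0.05 ran from 2 (without ND 1 or HCD 2, and 3 without ND 2) to 8 (without HCD 3), and the count higher from 1 (without ND 1, ND 4, HCD 2 or HCD 3) to 3. Fold changes below 0 numbered 23 to 29, and non-overlapping groups 4 to 8, a count that fewer libraries raise by construction. The median ran from -0.0789 to -0.0202 for all 40 genes, from -0.0063 to 0.0388 for complex II, from -0.1057 to -0.0379 for complex III, from -0.075 to -0.0319 for complex IV and from -0.1023 to -0.013 for complex V.

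Over all fits, 23 of 40 genes kept their direction and 17 turned in at least 1, the largest of those at a main log2 fold change of 0.0771 in size. Sdhc turned to 0.0027 with no filter. Under the same term for 3 ND libraries, values turned to 0.0538 for Sdhc, -0.11 for Uqcrc1, 0.17 for Uqcrq, 0.30 for Uqcrfs1, 0.31 for Cox6c, 0.0621 for Cox7a2l, 0.0032 for Cox7c, 0.007 for Ndufa4, 0.0767 for Atp5e, 0.24 for Atp5o, 0.0353 for Atp5j2, -0.0484 for Atp5g1, 0.0316 for mt-Cytb and -0.21 for Ndufa4l2. Ndufa4l2 was -0.0382 with limma-voom and -0.0156 with the block, and Cox7a1 -0.0006 and -0.005 with DESeq2 and upper-quartile factors, -0.0641 with limma-voom and -0.0075 with the block. With 1 library left out, ranges crossed 0 for Sdhc (-0.0389 to 0.0208), Uqcrc1 (-0.0639 to 0.0644), Uqcrq (-0.1057 to 0.0143), Uqcrfs1 (-0.15 to 0.033), Cyc1 (-0.10 to 0.0503), Cox4i1 (-0.0846 to 0.0364), Cox6a1 (-0.0737 to 0.0103), Cox6c (-0.19 to 0.10), Cox7c (-0.27 to 0.18), Atp5o (-0.11 to 0.0359), Atp5j (-0.0282 to 0.14), Atp5j2 (-0.16 to 0.0074), Atp5g1 (-0.0443 to 0.0341), Atp5f1 (-0.0535 to 0.11), Atp5k (-0.20 to 0.0188), Ndufa4l2 (-0.27 to 0.12), Cox7a1 (-0.19 to 0.33) and mt-Co3 (-0.0617 to 0.38). The cause of these turns was not tested. Mitf was not called with the block (adjusted p = 0.106) or with the term (0.339). Counts of 26 to 87 limit Cox7c, Atp5g2 and Atp5l.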
